A study of Mus musculus with 4 samples.

Results

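The metallothionein genes Mt1, Mt2 and Mt3 and the iron handling genes Fth1, Ftl1, Trf, Tfrc, Cp, Slc40a1 and Slc11a2 were followed across the 4 brain libraries of the mouse model of Hunter syndrome. The 10 members were chosen by gene symbol, mapped to the Entrez identifiers of the table of counts. All 10 were among its 12700 genes, and none had fewer than 276 reads in any library. The mice were Ids-ko animals, which lack the lysosomal enzyme iduronate 2-sulfatase, and their wild type (wt) littermates, all C57BL/6 and 9 months old. Their brains were divided into Cx, the cerebral cortex, and M, an area that holds midbrain, diencephalon (with hypothalamus, thalamus and striatum) and hippocampus. RNA of 7 mice was pooled into 1 library for each of the 4 conditions, named CxH and MH in Ids-ko and CxWT and MWT in wt. With 1 library per condition there is no replicate check, and each test below sets one library against another, without saying how far genotypes or areas differ. The Ids-ko mouse lacks the enzyme in every tissue, so no cell type of the brain can be singled out by the design. In such bulk RNA, fewer cells of a type and less RNA per cell cannot be told apart.

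Metallothioneins are small cysteine-rich proteins that bind zinc and copper. Mt1 and Mt2 are induced by metals, glucocorticoids and inflammation, most strongly in astrocytes in the brain, while Mt3 is the brain form, expressed in neurons and astrocytes and little induced by metals. Iron arrives bound to transferrin (Trf), which in the adult brain is made mainly by oligodendrocytes, and enters cells through the transferrin receptor (Tfrc). The transporter Slc11a2 (DMT1) carries it out of endosomes, ferritin shells of heavy (Fth1) and light (Ftl1) chains store it, and ferroportin (Slc40a1) exports it with the help of the ferroxidase ceruloplasmin (Cp). When iron is scarce, the iron regulatory proteins, encoded by Aco1 and Ireb2, bind a hairpin in the messenger RNA, the iron-responsive element. At a 5′ UTR this blocks translation, as in ferritin, and at the 3′ UTR of Tfrc it protects the messenger from decay. Reads report messenger RNA alone, and control of translation is not seen by them.

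The iron-responsive elements are shown because reads report the messenger, on which these hairpins act by translation (5′ UTR) or by decay (Tfrc). Transcripts were searched for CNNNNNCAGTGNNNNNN with a stem of 5 paired bases (A with T, G with C or G with T) on either side of the CAGTGN loop. A match stood in the 5′ UTR of 33 of 19945 annotated genes (0.165%), among them 3 members, and in the 3′ UTR of 125 of 20007 genes (0.625%), among them Tfrc with 4 sites. The search was strict, and Slc11a2, known to have a 3′ UTR element in some of its forms, had no match. Capitals mark the CAGTG of the loop, sequences run 5′ to 3′ on the transcript, and positions are of NCBIM37/mm9 with the strand given.
Fth1, 5′ UTR, chr19:10057222-10057251, plus strand: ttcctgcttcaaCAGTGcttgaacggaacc
Ftl1, 5′ UTR, chr7:52715148-52715177, minus strand: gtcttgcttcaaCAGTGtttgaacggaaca
Slc40a1, 5′ UTR, chr1:45982309-45982338, minus strand: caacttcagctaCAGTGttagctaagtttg
Tfrc, 3′ UTR, chr16:32631305-32631334, plus strand: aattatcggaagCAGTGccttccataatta
Tfrc, 3′ UTR, chr16:32631684-32631713, plus strand: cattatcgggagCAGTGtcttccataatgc
Tfrc, 3′ UTR, chr16:32631749-32631778, plus strand: ctatatcggagaCAGTGatctccatatgtt
Tfrc, 3′ UTR, chr16:32631796-32631825, plus strand: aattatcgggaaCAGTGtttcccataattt

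The metallothionein promoters are shown because the 3 genes lie side by side on chromosome 8, all on the plus strand. Their levels parted between libraries, and the part of the promoters in this was not tested. Mt3 spans 96676507 to 96678048, Mt2 96696518 to 96697467 and Mt1 96702989 to 96704225. The zinc sensor MTF-1 binds metal response elements, and their core was searched as TGCACNC or TGCGCNC on both strands. In the 250 bases before the start that RefSeq gives (promoter table of GRCm38.p6, whose windows were found letter for letter in NCBIM37), Mt2 held 3 cores, Mt1 held 1 and Mt3 held 0. At least 1 core stood in 21.4% and at least 3 in 1.26% of the 32851 promoters of the table. With the first 50 bases after that start included, Mt2 held 4, Mt1 held 3 and Mt3 held 1. In these longer windows at least 1 core stood in 25.7%, at least 3 in 1.97% and at least 4 in 0.517% of the promoters. The counts depend on the start that is annotated, as the rise for Mt1 shows, and no other start of these genes was searched. They therefore do not rank the 3 genes by metal response elements. A match is a description and not a bound site, and capitals mark the cores.
Mt1, chr8:96702739-96702988, plus strand: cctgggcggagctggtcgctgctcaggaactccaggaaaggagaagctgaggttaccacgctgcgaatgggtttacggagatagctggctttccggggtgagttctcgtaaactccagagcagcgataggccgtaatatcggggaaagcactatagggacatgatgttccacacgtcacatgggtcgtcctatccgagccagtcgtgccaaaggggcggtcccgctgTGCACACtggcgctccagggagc
Mt2, chr8:96696268-96696517, plus strand: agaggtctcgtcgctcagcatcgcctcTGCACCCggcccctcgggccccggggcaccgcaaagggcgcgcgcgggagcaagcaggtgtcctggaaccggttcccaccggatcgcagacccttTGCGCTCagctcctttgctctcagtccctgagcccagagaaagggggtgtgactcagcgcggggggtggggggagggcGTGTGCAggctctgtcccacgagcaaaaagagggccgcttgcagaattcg
Mt3, chr8:96676257-96676506, plus strand: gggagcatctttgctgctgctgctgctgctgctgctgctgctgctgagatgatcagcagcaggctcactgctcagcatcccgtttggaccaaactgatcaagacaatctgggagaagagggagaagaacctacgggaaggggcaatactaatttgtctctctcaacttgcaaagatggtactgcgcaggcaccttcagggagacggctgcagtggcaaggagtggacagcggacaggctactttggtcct

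Before the members are compared, the labels have to be set beside the marker genes. Reads on genes numbered between 16380080 (MWT) and 23475080 (CxH), and levels are given as RPM, reads scaled to 1000000 aligned reads, with 95% exact Clopper-Pearson intervals that cover counting error only. Where 4 values of a gene follow each other without names, their order is CxH, CxWT, MH, MWT. Ids had 135, 354, 368 and 155 RPM, so in M the library labelled Ids-ko held more Ids reads than the library labelled wt. Which bases of Ids the knock-out removes is not given in the sources used here, and the counts are of the whole gene. The area markers also went against the labels. The 10 markers of cortical excitatory neurons summed to 1682 RPM in CxH and 1524 in MH, but to 222 in CxWT and 165 in MWT. The 12 markers of midbrain and diencephalon summed to 22.4 RPM in CxH and 34.4 in MH, where En1 was at 0, but to 497 in CxWT and 434 in MWT. The 4 library names are therefore used below only as labels, no library was regrouped, and every member is given in all 4 libraries. Exchanging the labels MH and MWT would turn the sign of every MH vs. MWT ratio, but would leave the area markers against the labels. Names that fitted both Ids and the area markers would change which conditions each of the 4 comparisons sets against each other. The short forms Cx and M, used of a ratio, stand below for CxH vs. CxWT and MH vs. MWT as labelled.

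**Figure D1:**
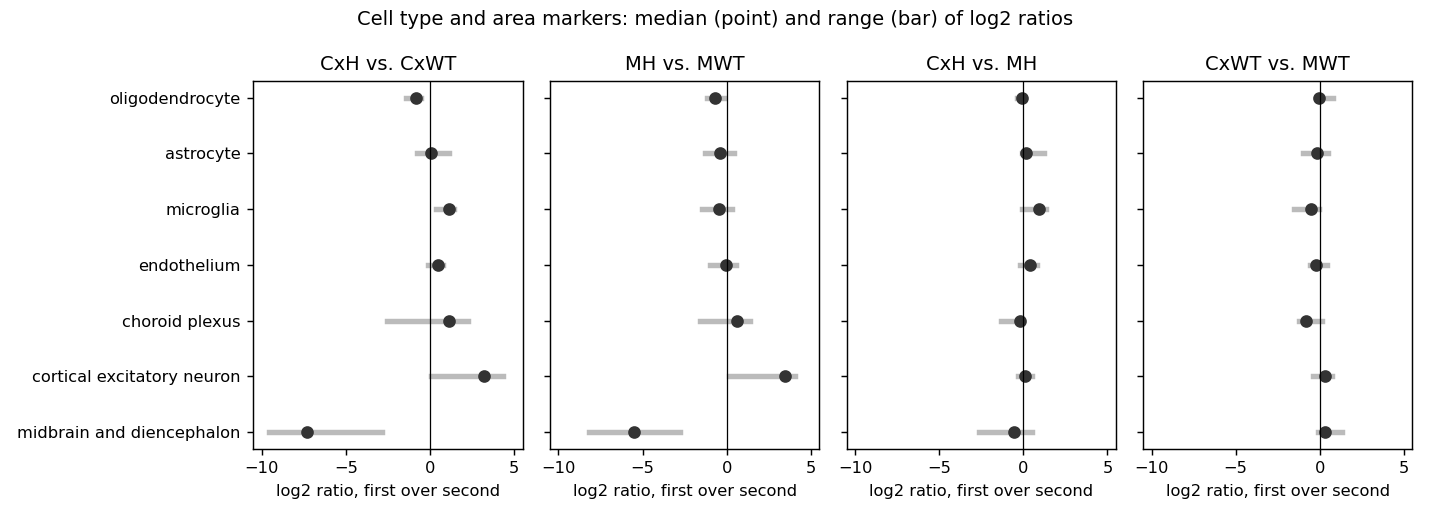
Log2 ratio of RPM (horizontal axis) of 7 lists of cell type and area markers in the 4 comparisons of the study, with the median as a point and the range over the markers as a bar. The medians of the cortical markers lie far to the right and those of the midbrain markers far to the left in CxH vs. CxWT and in MH vs. MWT, though the cortical marker Rorb (0.03 and 0.16) was not called there, while the medians of these 2 lists lie between -0.55 and 0.33 in the other two panels, with midbrain markers ranging down to -2.63 in CxH vs. MH.

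A gene was called up-regulated or down-regulated when its log2 ratio reached 0.7 in size and the likelihood ratio test on Poisson counts put its p-value below 0.05. Each ± is the standard error from counting. In CxH vs. CxWT, Mt3 and Ftl1 were up-regulated and no member was down-regulated, 2 of 10 members against 20.9% of all genes. In MH vs. MWT, Fth1, Trf and Cp were down-regulated and none was up-regulated, 3 of 10 against 25% of all genes. These shares lay near the background. The p-value alone was under 0.05 for 10 of 10 members in the first and 9 of 10 in the second comparison, but also for 73.4% and 74.8% of all genes, so at this depth the call turns on the size of the ratio. The median log2 ratio of the members was 0.16 in CxH vs. CxWT, beside -0.09 over all genes, and -0.42 in MH vs. MWT, beside -0.07 over all genes. Of the 10 members, 5 had ratios above 0 in the first comparison and 1 in the second.

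**Figure D2:**
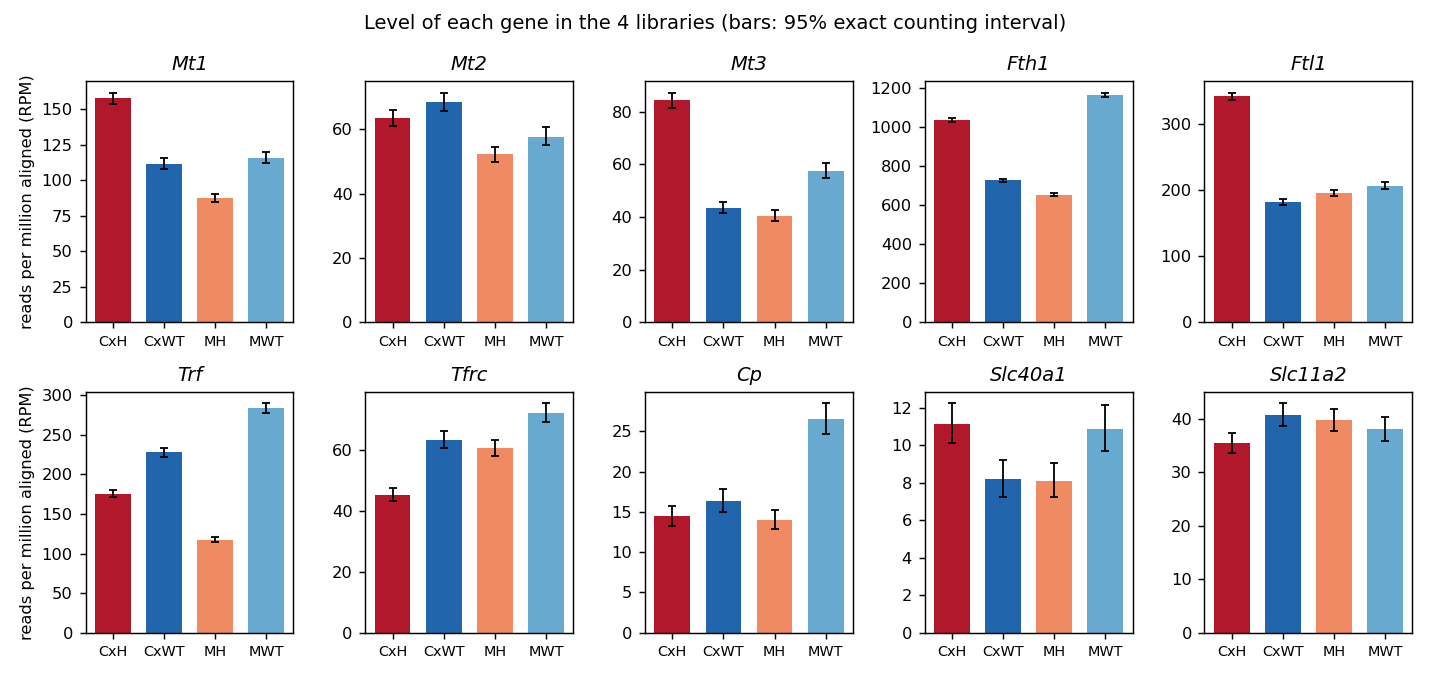
RPM (vertical axis, from 0, a scale of its own for each gene) of the 10 members in the libraries CxH, CxWT, MH and MWT, with 95% exact counting intervals. By these RPM, MH is the lowest library for 7 of the 10 genes, and no gene is highest there. The MH intervals of Mt3 and Slc40a1 overlap those of CxWT, and that of Cp overlaps CxH. With TMM or DESeq2 size factors Mt3 and Slc40a1 are slightly higher in MH than in CxWT.

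By RPM, Mt1 and Mt3 were highest in CxH, and Mt2 differed least between libraries. Mt1 had 6075, 3757, 3264 and 3354 reads, which is 158, 112, 87.4 and 116 RPM. CxH stood above the other 3 libraries, CxWT and MWT had overlapping intervals, and MH was lowest. The log2 ratio of Mt1 was 0.50 ± 0.030 in CxH vs. CxWT and -0.41 ± 0.035 in MH vs. MWT, below the threshold in both. Mt3 had 3251, 1465, 1515 and 1670 reads, or 84.4, 43.6, 40.5 and 57.7 RPM. It was about 1.94-fold higher in CxH than in CxWT, a log2 ratio of 0.95 ± 0.045 that was called, while MH vs. MWT gave -0.51 ± 0.051, which was not. CxWT and MH did not differ beyond their intervals. Mt2 had 2444, 2305, 1950 and 1671 reads, or 63.5, 68.6, 52.2 and 57.7 RPM, the narrowest range of the 3 genes. Its log2 ratio was -0.11 ± 0.042 in CxH vs. CxWT and -0.15 ± 0.048 in MH vs. MWT. Mt2 was called in none of the 6 pairs of libraries. The Mt3 call in Cx was lost when ratios were corrected for GC content and transcript length (0.50), and the same correction brought Mt3 past the threshold in M (-0.78). After it Mt3 was lower in CxH than in MWT, at -0.15, so the rank of CxH for Mt3 depended on the processing.

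The ratio of Mt1 to Mt2, which does not depend on how libraries are scaled, showed the same parting of the pair. It was 2.49 reads of Mt1 per read of Mt2 (95% interval 2.37 to 2.61) in CxH, 1.63 (1.55 to 1.72) in CxWT, 1.67 (1.58 to 1.77) in MH and 2.01 (1.89 to 2.13) in MWT. CxWT and MH overlapped, and CxH and MWT lay above both and apart from each other. The reads of Mt3 per read of Mt1 ran from 0.390 in CxWT through 0.464 in MH and 0.498 in MWT to 0.535 in CxH. Per kilobase of exon, as RPKM, Mt1 stood above Mt2 in every library, by a factor between 1.20 in CxWT and 1.84 in CxH, and Mt3 was at 0.546 to 0.749 of the RPKM of Mt1.

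Both ferritin chains were abundant messengers, with different patterns over the libraries. Fth1 (chromosome 19, 10057193 to 10059582, plus strand) had the second highest RPKM of all genes in each of the 4 libraries, at 1198, 838, 754 and 1345. Its reads numbered 39951, 24410, 24401 and 33705, which is 1038, 726, 653 and 1164 RPM. No interval overlapped, and MWT and CxH were high while CxWT and MH were low. The log2 ratio of Fth1 was 0.52 ± 0.012 in CxH vs. CxWT, below the threshold, and -0.83 ± 0.012 in MH vs. MWT, where it was called down-regulated. Ftl1 (chromosome 7, 52713314 to 52715254, minus strand) had 13140, 6121, 7287 and 5976 reads, or 341, 182, 195 and 206 RPM. By RPKM it ranked between 52 and 130 among all genes. CxH alone was high, and the other 3 libraries lay within a narrow range without overlapping. The log2 ratio of Ftl1 was 0.91 ± 0.022 in CxH vs. CxWT, called up-regulated, and -0.08 ± 0.025 in MH vs. MWT, close to the median of all genes (-0.07) and at -0.02 with TMM or DESeq2 size factors.

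The reads of Fth1 per read of Ftl1 were 3.04 (2.98 to 3.10) in CxH, 3.99 (3.88 to 4.10) in CxWT, 3.35 (3.26 to 3.44) in MH and 5.64 (5.49 to 5.80) in MWT. Reads of the heavy chain were in largest excess in MWT and in smallest excess in CxH, and none of the 4 intervals overlapped. These ferritin values carry a limit. Ferritin genes have processed copies in the genome, only reads that aligned to a single gene were counted, and the read length is not given in the sources used here. Taking windows of 50 bases of the transcript, 95.8% of those of Ftl1 occurred elsewhere in NCBIM37 with up to 2 mismatches, at 26 places, and 74.9% occurred there exactly. For Fth1 the shares were 34.4% and 8.69%, at 4 places, and among the other members the highest share with up to 2 mismatches was 5.72%, for Mt2. The level of Ftl1, and its ratio to Fth1, are therefore uncertain, and whether copies took a different share of reads in different libraries was not tested. The calls of Ftl1 in Cx and Fth1 in M were both lost after the correction for GC content and length, at 0.61 and -0.54.

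Transferrin had the largest log2 ratio of all members over the 6 pairs of libraries. Trf (chromosome 9, 103106331 to 103132774, minus strand) had 6762, 7649, 4389 and 8206 reads, or 176, 228, 117 and 283 RPM. MWT was highest and MH lowest, and no intervals overlapped. Trf was about 2.41-fold lower in MH than in MWT, a log2 ratio of -1.27 ± 0.027 that was called, and 3.47% of all genes had a lower ratio there. In CxH vs. CxWT the log2 ratio was -0.37 ± 0.024, in the same direction and below the threshold. The call in M held under each of the 10 alternative settings, between -1.33 and -1.21. The 11 oligodendrocyte markers summed to 5086, 9644, 5299 and 7805 RPM, highest in CxWT and not in MWT. Between MH and MWT 11 of 11 had ratios below 0, with a median of -0.71, and 6 were down-regulated. They were lower in CxH than in CxWT as well, with a median of -0.87, where Trf was not called. Between CxH and MH the oligodendrocyte markers had a median of -0.08, and Trf was 0.58 ± 0.028 higher in CxH. The part of oligodendrocytes in the Trf levels was not tested. The annotation holds a second gene model named Trf over 26307 bases of the same strand.

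The transferrin receptor was called in none of the 6 pairs of libraries, except CxH vs. MWT when column totals scaled the libraries (-0.78). After the GC and length correction that ratio was -0.01. Tfrc (chromosome 16, 32609006 to 32632880, plus strand) had 1742, 2133, 2265 and 2091 reads, or 45.2, 63.4, 60.6 and 72.2 RPM. CxH was lowest, and CxWT and MH did not differ beyond their intervals. Its log2 ratio was -0.49 ± 0.047 in CxH vs. CxWT and -0.25 ± 0.044 in MH vs. MWT, neither past the threshold, and the latter turned to 0.11 after the GC and length correction. In CxH, Fth1, Ftl1 and Slc40a1, the members with a match in the 5′ UTR, were above CxWT by 0.52, 0.91 and 0.44 on the log2 scale, and Tfrc with its 3′ UTR matches was at -0.49. After the GC and length correction Tfrc was at -0.06 there, so its distance from 0 depended on the processing. In MH vs. MWT all 4 of these genes were below 0, Tfrc not after the correction. Aco1 and Ireb2, which encode the iron regulatory proteins, had log2 ratios of -0.17 and -0.72 in Cx, where Ireb2 was called, and 0.03 and -0.42 in M. The 5′ elements act on translation, which reads do not show. The part of the elements or of these proteins in the ratios was not tested.

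Ceruloplasmin was one of the low members. Cp (chromosome 3, 19857054 to 19909145, plus strand) had 557, 550, 523 and 768 reads, or 14.5, 16.4, 14.0 and 26.5 RPM. MWT stood alone above the other libraries, and CxH overlapped with both CxWT and MH. Cp was called down-regulated in MH vs. MWT at -0.92 ± 0.082, a 1.90-fold difference, but not in CxH vs. CxWT at -0.18 ± 0.087. After the GC and length correction these values were -0.61, no longer called, and 0.17. Cp overlaps Hps3 on the opposite strand over 13201 bases, and whether the counting used strand is not given in the sources used here.

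The iron transporters Slc40a1 and Slc11a2 were called in none of the 6 pairs of libraries. Slc40a1 (chromosome 1, 45964915 to 45982439, minus strand), the iron exporter, had 429, 276, 303 and 315 reads, the fewest of all members, or 11.1, 8.21, 8.11 and 10.9 RPM. CxH and MWT overlapped, and so did CxWT and MH. The log2 ratio was 0.44 ± 0.11 in CxH vs. CxWT and -0.42 ± 0.12 in MH vs. MWT, not called, although the GC and length correction took the first just past the threshold (0.71) and brought the second to -0.10. Slc11a2 (chromosome 15, 100218329 to 100255503, minus strand), the divalent metal importer, had 1363, 1368, 1486 and 1101 reads, or 35.4, 40.7, 39.8 and 38.0 RPM. All neighbours in the order of its levels overlapped, and the gene shares 2926 bases with Gm5475 on the opposite strand. Its log2 ratio was -0.20 ± 0.055 in CxH vs. CxWT and 0.06 ± 0.057 in MH vs. MWT, with an interval of -0.05 to 0.18 in the latter.

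**Figure D3:**
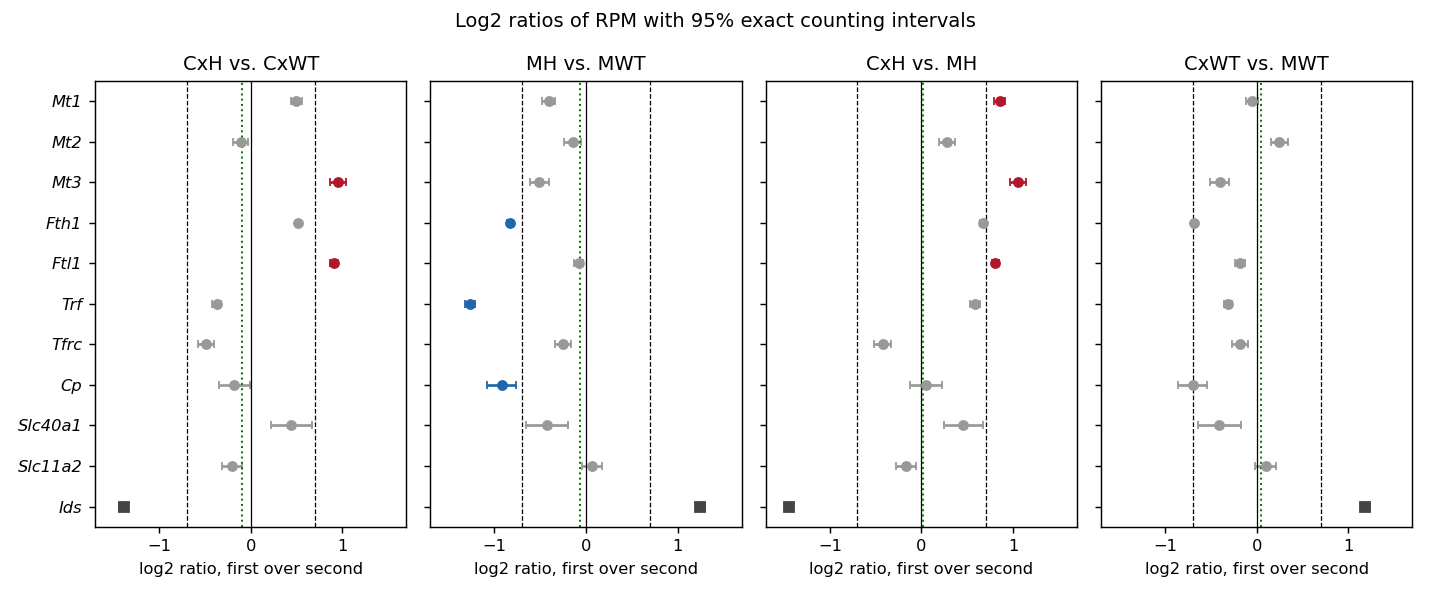
Log2 ratio of RPM (horizontal axis) of the 10 members and Ids (squares) in the 4 comparisons of the study, with 95% exact counting intervals. Red points were called up-regulated and blue points down-regulated, dashed lines mark the threshold of 0.7 on either side, and the dotted green line is the median of all genes. Mt3 and Ftl1 are red in CxH vs. CxWT and CxH vs. MH, Mt1 joins them in the latter, and Fth1, Trf and Cp are blue in MH vs. MWT.

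Between the libraries labelled Ids-ko, in CxH vs. MH, 8 of 10 members had ratios above 0, of which 3 were called. Cp at 0.05 ± 0.088 did not differ beyond counting error, but was at 0.31 after the GC and length correction. The same correction moved Mt2 from 0.28 to -0.07 and Tfrc from -0.42 to -0.12. Mt1, Mt3 and Ftl1 were up-regulated, at 0.85 ± 0.031, 1.06 ± 0.045 and 0.81 ± 0.021, and no member was down-regulated, so 3 of 10 members were called in the direction in which 2.43% of all genes were (1.06% in the other, 3.5% in both together). Fth1 at 0.67 ± 0.012 lay just below the threshold. The median of the members was 0.52, beside 0.01 over all genes, and the members below 0 were Tfrc at -0.42 and Slc11a2 at -0.17. Mt3 in this comparison exceeded 99.2% of all genes. After the correction for GC content and length none of the 3 calls was left, at 0.56 for Mt1, 0.64 for Mt3 and 0.51 for Ftl1, and the Ftl1 call was also lost with an assumed variation of 0.2 between pools. Microglial markers moved here too, with a median of 0.90 and 6 of 10 up-regulated. Of the 10 astrocyte markers only Gfap was called, at 1.25, and the list had a median of 0.14, with 3 markers below 0. The part of these cells in the ratios of the members was not tested. Ids was at -1.44 ± 0.023 between these 2 libraries of the same labelled genotype.

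Between the libraries labelled wt, in CxWT vs. MWT, 0 of 10 members were called by the Poisson likelihood ratio test with both thresholds, beside 7.54% of all genes, while 8 of 10 had a p-value under 0.05, as did 61.7% of all genes. The median was -0.25, beside 0.04 over all genes. Cp at -0.70 ± 0.081 and Fth1 at -0.68 ± 0.012 lay just inside the threshold, and both were called when libraries were scaled by column totals, TMM factors or DESeq2 size factors. Mt2 at 0.25 ± 0.046 and Slc11a2 at 0.10 ± 0.058 were the members above 0. The remaining members ran from -0.41 for Slc40a1 to -0.05 for Mt1.

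The remaining pairs of libraries, which are no contrast of the study, are given because of the Ids reads. In MH vs. CxWT, the libraries with more Ids reads, 1 of 10 members was called against 15.3% of all genes. This was Trf at -0.95 ± 0.027. The 9 others lay between -0.39 for Mt2 and 0.10 for Ftl1, and the median of the members was -0.13, beside -0.11 over all genes. In CxH vs. MWT, the libraries with fewer Ids reads, Ftl1 was up-regulated at 0.73 ± 0.023 and Cp down-regulated at -0.88 ± 0.080, 2 of 10 against 30.7% of all genes. After the GC and length correction these ratios were 0.32 and -0.30, and neither was called, while Trf was (-0.79). With column totals Ftl1 was not called either (0.62), and Trf was (-0.80). Trf at -0.69 ± 0.024 and Tfrc at -0.68 ± 0.047 lay just inside the threshold, but Tfrc was at -0.01 after the GC and length correction. Fth1 was at -0.17 ± 0.011 and Slc40a1 at 0.03 ± 0.11, the latter at 0.54 after the correction. Mt1, Mt3, Fth1, Ftl1 and Slc40a1, 5 of the 10 members, had their 2 highest values in CxH and MWT.

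CxH vs. CxWT and MH vs. MWT share no library, though each shares one with CxH vs. MH and with CxWT vs. MWT. Set side by side, the Cx and M ratios differed for most members, but such a difference has no replicate check. Mt1, Mt3, Fth1, Ftl1 and Slc40a1 were above 0 in Cx and below 0 in M, and the Cx ratio exceeded the M ratio by 0.91 ± 0.046, 1.46 ± 0.068, 1.35 ± 0.017, 0.99 ± 0.034 and 0.86 ± 0.16 on the log2 scale, with counting error only. The M ratio was small for Ftl1 (-0.08) and, after the GC and length correction, for Slc40a1 (-0.10) and Mt1 (-0.18). Trf and Cp were below 0 in both (Cp in Cx not after the GC and length correction) and lower in M, by 0.90 ± 0.036 and 0.75 ± 0.12. For Mt2 the difference was 0.03 ± 0.064, but the GC and length correction moved its ratio to -0.44 in Cx and to -0.04 in M. Tfrc and Slc11a2 differed the other way, by -0.23 ± 0.064 and -0.27 ± 0.080. Among the members, the centred log2 levels were closest for Fth1 and Slc40a1 (Euclidean distance 0.296 over the 4 libraries), then for Mt3 and Ftl1 (0.304) and Mt1 and Mt3 (0.339).

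**Figure D4:**
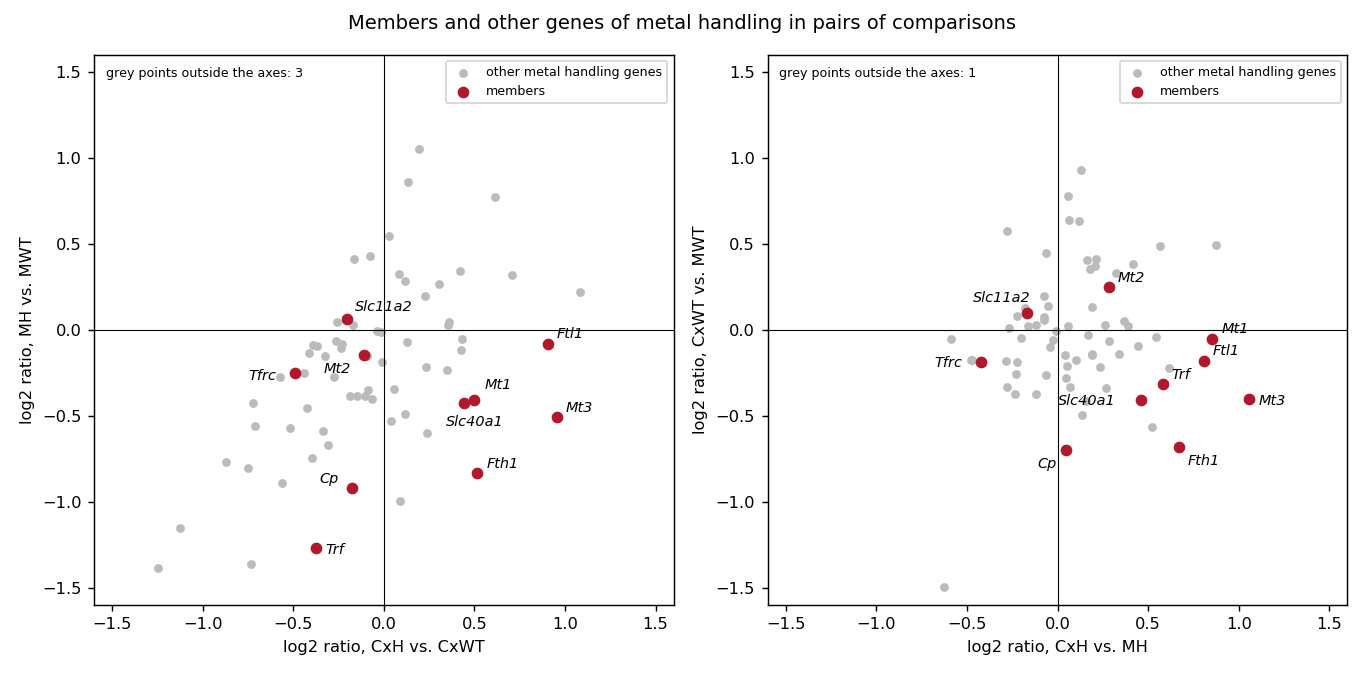
Log2 ratios of the 10 members (red, named) and of 62 other genes of metal handling (grey), with CxH vs. CxWT against MH vs. MWT on the left and CxH vs. MH against CxWT vs. MWT on the right. Mt1, Mt3, Fth1, Ftl1 and Slc40a1 lie in the lower right of both panels, with positive ratios on the horizontal and negative ratios on the vertical axis. The interval of Mt1 in CxWT vs. MWT includes 0 (-0.12 to 0.015), and its ratio there is 0.12 after the GC and length correction. Both panels are drawn from the same 4 libraries.

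Other genes of metal handling were taken from 4 lists, of which 62 of 77 genes were in the table. In CxH vs. CxWT 4 of the 62 were up-regulated and 8 down-regulated, and in MH vs. MWT 4 and 10, beside 9.46% and 11.5% of all genes in Cx and 12.3% and 12.7% in M. Of 20 genes of iron uptake and transport, 3 were up-regulated and 5 down-regulated in Cx, with a median of -0.09, and 0 and 6 in M, with a median of -0.23. Lcn2 binds iron-carrying siderophores and is secreted in inflammation. It had the widest fold range of the list, with 6.13, 1.22, 0.830 and 8.74 RPM. It was high in CxH and MWT and low in CxWT and MH, at a log2 ratio of 2.33 in Cx and of -3.40 in M. Heph, a ferroxidase related to Cp, was down-regulated in Cx and M, at -1.24 and -1.38, and so was the metalloreductase gene Steap2 in both, at -1.81 and -1.27. Steap1 was up-regulated in Cx at 1.08, on 34 and 14 reads.

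Of 15 genes of iron storage, sensing and use, 0 were up-regulated and 2 down-regulated in Cx (median -0.09), and 1 and 3 in M (median -0.15). Ncoa4, the receptor that delivers ferritin to lysosomes, was down-regulated in both, with 68.0, 114, 82.4 and 144 RPM. The log2 ratios were -0.75 (Cx) and -0.80 (M). Fth1 and Ftl1 were above 0 in Cx, at 0.52 and 0.91, and below 0 in M, at -0.83 and -0.08. In M, Bmp6, an inducer of the iron hormone hepcidin, was up-regulated at 1.05, and Glrx5 and Iscu, of iron-sulphur cluster assembly, were down-regulated at -0.996 and -0.89.

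Of 18 genes of zinc handling, 1 was up-regulated and 1 down-regulated in Cx (median -0.17), and 3 and 1 in M (median -0.09). Slc30a3, which loads zinc into synaptic vesicles of cortical neurons, had 58.9, 11.9, 53.8 and 6.25 RPM, high in the same libraries as the cortical markers, with log2 ratios of 2.31 and 3.11. The zinc importer gene Slc39a12 was down-regulated in both, at -0.73 and -1.36, and Slc39a3 was up-regulated in M at 0.86. Mtf1, the gene of the metal sensor of the metallothionein promoters, was at 0.13 in Cx and -0.07 in M, not called. The log2 ratios of 9 genes of copper handling lay between -0.57 and 0.36 in Cx and between -0.53 and 0.04 in M, all inside the threshold.

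Markers of other cells changed between the same libraries. The 10 astrocyte markers summed to 4177, 3166, 3391 and 3855 RPM and did not move as one, with a median log2 ratio of 0.08 in Cx and -0.39 in M. Gfap, the marker of reactive astrocytes, was high in CxH and MWT, at 1.11 in Cx and -1.13 in M. The water channel gene Aqp4 was lower in both, at -0.80 and -1.30, and the glutamate transporter gene Slc1a2 was higher in both, at 0.84 and 0.43. The 10 microglial markers summed to 738, 400, 458 and 602 RPM, with 10 of 10 above 0 in Cx (median 1.11) and 7 of 10 below 0 in M (median -0.45), with the 2 highest sums in CxH and MWT. Mt1, Mt3, Fth1, Ftl1 and Slc40a1 also had their 2 highest levels there, though Ftl1 in MWT lay close to MH. After the GC and length correction Slc40a1 in MWT lay close to MH as well (-0.10 in MH vs. MWT), and Mt1 was higher in CxWT than in MWT, at 0.12. Endothelial markers summed to 237 to 314 RPM with CxH highest, and choroid plexus markers to 172 to 656 RPM with MH highest. Most of the latter was Ttr, with 113 RPM in CxWT and 583 in MH, while Otx2 (-1.97 and -1.57) and Prlr (-2.57 and -1.37) were down-regulated in Cx and M. Of 5 red blood cell markers 2 were in the table, and they were highest in CxWT (254 RPM) and lowest in MWT (77.1 RPM). No marker of these lists was at 0. The part of any of these cells in the levels of the members was not tested.

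By rule, the genes nearest to each member over the 4 libraries were named, up to 2 for each, as those with the smallest distance between centred log2 RPM among genes with at least 100 reads in each library. With 4 libraries such likeness is a description only. Nearest to Mt1 was Mrpl14 (0.064). For Mt2 they were Gfod2 and Dpf2 (0.025 and 0.026), and for Mt3 Rplp0 and Pld4 (0.099 and 0.11). Morn2 (0.083) and the lysosomal hydrolase gene Gusb (0.099) came nearest to Fth1, and Ramp1 (0.029) and Ier3 (0.087) to Ftl1. Trf had the most distant neighbours, Pvalb (0.13) and Ass1 (0.14). Nearest to Tfrc were Brix1 and Zfp426 (0.034 and 0.040), to Cp Ndufv2 and Rcbtb2 (0.039 and 0.048), to Slc40a1 Lyn and Ssr2 (0.026 and 0.048), and to Slc11a2 Mon2 and Fgf14 (0.017 and 0.021). No other member was among the 2 nearest of any member.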

How the data were processed

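RNA of the areas Cx and M of Ids-ko and wt mice was sequenced on a SOLiD 3 Plus instrument, with 1 library for each of the 4 conditions. The authors aligned the reads to NCBI37/mm9 with PASS 2.10, allowing 2 mismatches, and a gene entered the table if reads covered above 50% of it. The deposited counts are whole numbers of reads aligned to a single gene, without normalization, and the gene annotation is not given in the sources used here.

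Symbols were taken from RefSeq for 12690 of 12700 Entrez identifiers, and positions, exon length and GC content from GENCODE vM1 for 12462. RPM are counts divided by the aligned reads that the study reports for each library, and reads on genes made up 56.6% to 61.0% of these. RPKM are RPM per kilobase of all exons of a gene. A count of 0 was set to 1 for ratios. Every gene was fitted with the test and thresholds of the study. The floor of 3 reads lay at 0.0779 to 0.104 RPM. The steps were tested on simulated data. The GC and length correction was fitted over 10737 genes, those with 100 reads or more in each of the 4 libraries. The tools were pandas 2.3.3, numpy 2.4.6, scipy 1.17.1 and matplotlib 3.10.9 in Python 3.11.15, DESeq2 1.42.0 and edgeR 4.0.16 in R 4.3.3, and, for genomic copies, BLAST 2.17.0.

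Named were all members, Ids, of each pathway and marker list the 2 highest and 2 lowest called genes in Cx and M where the text needs them, the genes nearest to each member, and genes of sets of 5 or fewer. Aco1 and Mtf1 were named after their values were seen. The members and lists were chosen with earlier results of these data known. Promoter sequences of Trf, Slc40a1 and Slc11a2 were not used here, and neither were protein sequences. Of the nearest genes, 1 is not reported here.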

Additional observations from a re-analysis of the deposited data

Results flagged for a closer look

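Results below are given because 2 comparisons that the labels make alike went in opposite directions, and in none of them could the difference be tested, with 1 library per condition. In CxH vs. CxWT, and then in MH vs. MWT, the log2 ratio was 0.50 and -0.41 for Mt1, 0.95 and -0.51 for Mt3, 0.52 and -0.83 for Fth1, 0.91 and -0.08 for Ftl1, and 0.44 and -0.42 for Slc40a1. The second value was -0.02 for Ftl1 with TMM or DESeq2 size factors. After the GC and length correction these pairs were 0.27 and -0.18, 0.50 and -0.78, 0.40 and -0.54, 0.61 and -0.19, and 0.71 and -0.10 in the same order of genes. In CxH vs. MH, and then in CxWT vs. MWT, it was 1.06 and -0.40 for Mt3, 0.67 and -0.68 for Fth1, 0.81 and -0.18 for Ftl1, 0.58 and -0.32 for Trf, and 0.46 and -0.41 for Slc40a1. The correction moved Mt3 to 0.64 and -0.64, Fth1 to 0.48 and -0.47, Ftl1 to 0.51 and -0.29, Trf to 0.50 and -0.33, and Slc40a1 to 0.64 and -0.17. Ids went in opposite directions in both, from -1.39 to 1.24 and from -1.44 to 1.19. Since Ids and the area markers go against the labels, these pairs need not compare the same genotypes or areas. Exchanging the labels MH and MWT would turn the sign of MH vs. MWT but leave the area markers against the labels. CxH and MH had similar sums of area markers, and so had CxWT and MWT, with Ids lower in CxH and in MWT. With the library lower in Ids set first, as CxH vs. MH and MWT vs. CxWT, Mt3, Fth1, Ftl1, Trf and Slc40a1 were above 0 in both. Which genotype and area each library holds was not tested.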

How the results depend on the processing

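Of 600 log2 ratios of members (10 members, 6 pairs of libraries, 10 alternatives), 549 kept direction and side of the threshold, 21 lost and 11 gained a call, and 19 changed sign. The causes were not tested. With a log2 threshold of 1 the members called were 0 in CxH vs. CxWT, 1 in MH vs. MWT (Trf), 1 in CxH vs. MH (Mt3), 0 in MH vs. CxWT and 0 in CxH vs. MWT, and all genes called 1401, 1642, 143, 1064 and 1961, with 295 in CxWT vs. MWT. After the GC and length correction 1 member was called in CxH vs. CxWT (Slc40a1), 0 in CxH vs. MH and 1 in CxH vs. MWT (Trf), none of them called before it, with 290 genes in CxH vs. MH, 384 in CxWT vs. MWT and 1894 in CxH vs. MWT. It turned Cp in CxH vs. CxWT (0.17), Tfrc in MH vs. MWT (0.11), Mt2 in CxH vs. MH (-0.074), Mt1 (0.12) and Tfrc (0.047) in CxWT vs. MWT, Tfrc (0.059) and Slc40a1 (0.064) in MH vs. CxWT, and Mt2 (-0.12), Mt3 (-0.15) and Ids (0.37) in CxH vs. MWT. An exact test in edgeR with an assumed variation of 0.2 between pools called 191 genes in CxH vs. MH, 487 in CxWT vs. MWT and 1 member in CxH vs. MWT (Cp). In CxWT vs. MWT, 2 members (Fth1, Cp) were called with column totals, 2 with TMM and 2 with DESeq2 size factors. In MH vs. CxWT, TMM gave 0.0037 for Mt3, 0.042 for Tfrc, 0.090 for Slc40a1 and 0.075 for Slc11a2, DESeq2 size factors 0.0049, 0.043, 0.091 and 0.076, and column totals 0.012 for Slc40a1, which was -0.074 in CxH vs. MWT with column totals. TMM and DESeq2 moved the median of all genes in MH vs. CxWT by 0.11, and column totals that in CxH vs. MWT by -0.11. The share of calls that were up-regulated in CxH vs. CxWT was 45.2%, 56.0% with TMM and 55.4% with DESeq2. In CxWT vs. MWT it was 72.0%, 55.2% with column totals and 61.7% after the correction, and in CxH vs. MH 69.6% and 58.4% with column totals. It was 41.9% in MH vs. CxWT, 54.2% with TMM and 54.4% with DESeq2, 50.8% in CxH vs. MWT and 39.1% with column totals, and 49.1% in MH vs. MWT, 56.1% with TMM, 56.3% with DESeq2 and 42.1% with column totals. No paired analysis was possible because each condition is 1 library without replicate numbers, and for the same reason no library could be left out.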
